A study of Mus musculus with 32 samples.

Results

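The genes described here are 10 markers of the ductular reaction and of liver progenitor cells: Krt7, Krt8, Krt18, Krt19, Krt23, Sox9, Epcam, Prom1, Cd24a and Afp. They were taken by symbol from the 41585 gene entries of the deposited tables of liver read counts, and all 10 were present in the table of females and in the table of males. RNA was sequenced from the livers of mice labelled C57BL/6 (C57Bl/6J in the study's methods). They were 10 weeks old at the start and kept for 8 weeks on normal chow (ND, 6.2% fat) or on CDAHFD. CDAHFD is a high fat diet (62%) without choline, defined by its L-amino acids and low in methionine (0.1%). The mice were wildtype (WT) or lacked Cyp2b9, Cyp2b10 and Cyp2b13 (Cyp2b-null, made with CRISPR/Cas9). With both diets, both genotypes and both sexes there were 8 groups of 4 libraries, 32 in all. The WT mice were bought from a vendor and are not described as littermates of the Cyp2b-null mice, so genotype and source of the mice cannot be told apart. Separate mice are not stated for each library, so p-values measure only the spread between the libraries of a group, which may be technical.

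The ductular reaction is the growth of small, bile duct-like epithelial cells at the edge of the portal tracts of an injured liver. These cells carry keratins of simple epithelia, the transcription factor Sox9 and surface proteins of epithelial progenitors such as Epcam. Hepatocytes themselves make the keratin pair Krt8 and Krt18 and little or no Krt7 or Krt19, while Afp is a secreted protein of the fetal liver that is silenced after birth.

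Library totals ran from 2906411 to 10166959 counts, with a median of 5368808. Cyp2b9 had 683 to 3530 counts in WT female libraries and 2 to 8 in Cyp2b-null female libraries. In males the deleted genes separated the genotypes by Cyp2b10 on ND, where WT libraries held 33 to 97 counts and Cyp2b-null ones 1 to 9, and by Cyp2b9 on CDAHFD, with 118 to 364 against 2 to 7. Expression is given as CPM, the counts scaled to a common library total after TMM normalization, separately for each sex. A gene was called where its adjusted p-value was under 0.05 (edgeR quasi-likelihood test, Benjamini-Hochberg over all genes tested), and changes are log2 fold changes with standard errors (SE). All 10 genes passed the filter on low counts, with 13226 genes tested in females and 13460 in males. Of the genes called, Krt23 in both sexes and Epcam and Afp in males needed CDAHFD-fed libraries to pass it, which favors a rise.

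On CDAHFD, marker genes rose in both sexes and both genotypes, and none fell. Krt8, Krt18 and Cd24a were called in all 4 diet comparisons, Krt23 and Epcam in 3, and Sox9 and Afp in 2. Krt7, Krt19 and Prom1 were called in 0. In WT females 5 of the 10 were called higher, where 13.9% of all genes tested were called higher and 10.2% lower. In Cyp2b-null females 6 were called higher, against 16.9% of all genes higher and 13.9% lower. In WT males 6 were called higher, against 18% higher and 15% lower, and in Cyp2b-null males 5, against 20.3% higher and 17.1% lower. The median log2 fold change of the 10 genes was 1.17 and 1.42 in WT and Cyp2b-null females and 1.42 and 1.58 in WT and Cyp2b-null males, where the median over all genes tested lay between -0.02 and 0.03. The libraries of both diets did not overlap, with every CDAHFD library higher, for 6 genes in WT females, 6 in Cyp2b-null females, 5 in WT males and 4 in Cyp2b-null males. Over all genes tested, that was so for 14.6%, 16.3%, 15.9% and 19.8%. Scaling by library size alone raised the median of all genes by 0.28 to 0.37 and turned 1838 higher and 1355 lower genes in WT females into 3898 and 492, and 2426 and 2017 in WT males into 5102 and 583, so changes are given relative to the TMM scale. In whole liver, more cells of a type and more RNA per cell cannot be told apart.

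**Figure D1:**
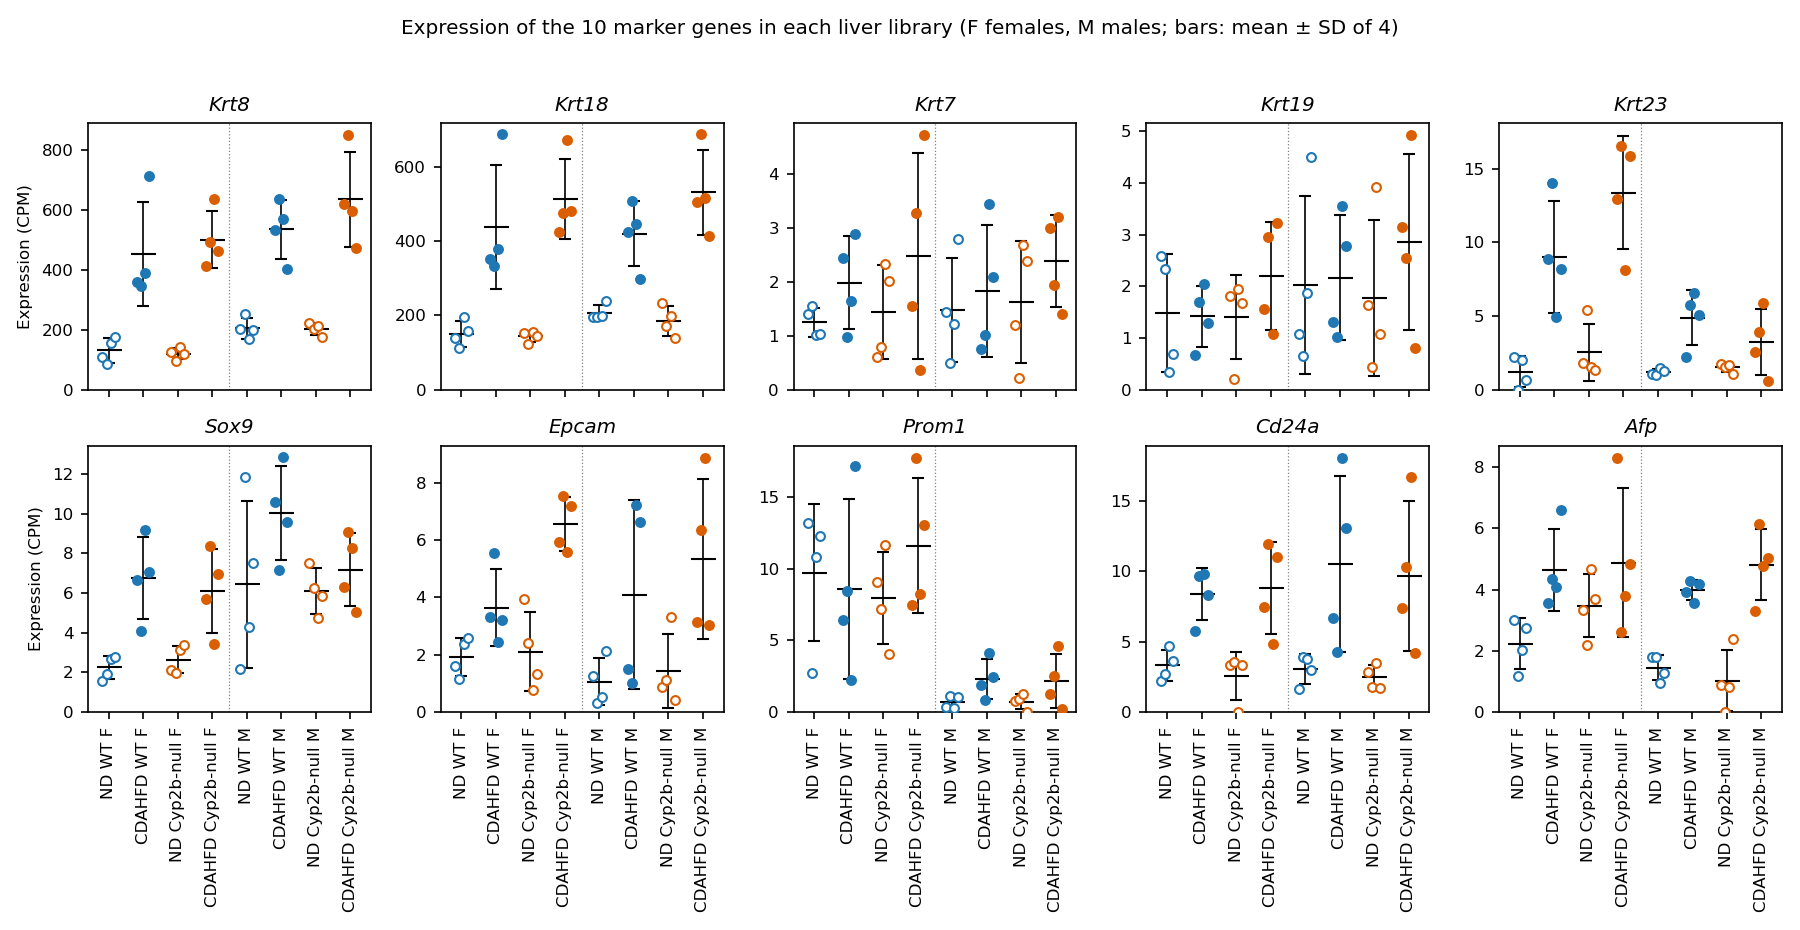
Expression in CPM (linear axes from 0) of each of the 10 marker genes in the 32 liver libraries, with 1 point per library, open for ND and filled for CDAHFD, blue for WT and orange for Cyp2b-null, and bars for the mean ± SD of 4. Krt8 and Krt18 stood between 85.1 and 850 CPM, the other 8 genes below 20 CPM in every library. Prom1 lay between 2.25 and 17.7 CPM in females and between 0 and 4.59 CPM in males.

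Levels set against each other per kilobase of exon put Krt18 and Krt8 far above the other 8 markers. In ND-fed WT females Krt18 stood at 105 ± 24.1 and Krt8 at 66.9 ± 21 CPM per kilobase (SD, n = 4), and their ranges over the libraries overlapped. The next genes were Prom1 at 1.36 ± 0.666 and Cd24a at 1.29 ± 0.431 CPM per kilobase, also with overlapping ranges. Epcam, Krt19, Krt23, Afp and Sox9 followed between 0.544 and 0.879 CPM per kilobase, and each overlapped its neighbor in the order. Krt7 was the lowest there, at 0.177 ± 0.038 CPM per kilobase, without overlap with Sox9. The order of the low genes differed between groups. In CDAHFD-fed WT females Krt23 came next after the keratin pair, at 5.75 ± 2.41 CPM per kilobase, overlapping Cd24a at 3.26. In CDAHFD-fed WT males Cd24a did, at 4.08 CPM per kilobase, overlapping Krt23 at 3.12. In ND-fed WT males Prom1 was last, at 0.0988 CPM per kilobase, overlapping Krt7 at 0.21.

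Krt8 (type II) and Krt18 (type I) pair into the keratin filaments of hepatocytes and of other simple epithelia. In WT females Krt8 stood at 109, 85.1, 155 and 175 CPM on ND and at 360, 346, 390 and 713 CPM on CDAHFD. All 4 CDAHFD-fed libraries were above all 4 ND-fed libraries, and replicate 4 was the highest on both diets. Krt8 rose by 1.78 (SE 0.23, adjusted p = 1.13e-05), which is 3.44-fold. In Cyp2b-null females Krt8 was at 125, 97.2, 141 and 118 CPM on ND and at 411, 494, 634 and 463 CPM on CDAHFD, a rise of 2.06 (SE 0.23, adjusted p = 2.17e-06). In WT males it was at 201, 252, 168 and 198 CPM on ND and at 532, 636, 569 and 401 CPM on CDAHFD, a rise of 1.38 (SE 0.17, adjusted p = 2.5e-06). In Cyp2b-null males it was at 223, 202, 213 and 177 CPM on ND and at 620, 850, 595 and 472 CPM on CDAHFD, a rise of 1.64 (SE 0.17, adjusted p = 2.34e-07). In none of these comparisons did the diets overlap.

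A processed pseudogene of Krt8, listed as Krt8-ps, took 139 to 5116 counts per library, or 33.7% to 41.5% of the counts of both entries. Reads of Krt8 and of this copy may have been divided between the entries, so the level of Krt8 is uncertain. With both counted as 1 gene, an alternative chosen after seeing the data, the diet effect of Krt8 was 1.77 and 2.02 in WT and Cyp2b-null females and 1.4 and 1.65 in WT and Cyp2b-null males.

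In WT females Krt18 was at 138, 112, 194 and 157 CPM on ND and at 353, 332, 379 and 688 CPM on CDAHFD. Replicate 4 again stood apart from the other CDAHFD-fed libraries, and the diets did not overlap. Krt18 rose by 1.54 there (SE 0.21, adjusted p = 1.93e-05). In Cyp2b-null females it was at 154, 123, 154 and 145 CPM on ND and at 425, 476, 672 and 480 CPM on CDAHFD, a rise of 1.84 (SE 0.21, adjusted p = 2.83e-06). In WT males it was at 197, 197, 197 and 239 CPM on ND and at 425, 508, 445 and 299 CPM on CDAHFD. This was the smallest of the 4 diet effects of Krt18, a rise of 1.02 (SE 0.18, adjusted p = 0.000138), and the diets still did not overlap. In Cyp2b-null males Krt18 was at 233, 170, 197 and 138 CPM on ND and at 505, 688, 517 and 412 CPM on CDAHFD, a rise of 1.52 (SE 0.18, adjusted p = 9.59e-07).

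The ratio of Krt8 to Krt18 per kilobase, a description chosen after the values were seen, was 0.635 ± 0.121 (SD, n = 4) in ND-fed and 0.758 ± 0.00695 in CDAHFD-fed WT females. It was 0.611 ± 0.0393 and 0.718 ± 0.0295 in Cyp2b-null females. In WT males it was 0.731 ± 0.153 on ND and 0.941 ± 0.0316 on CDAHFD, and in Cyp2b-null males 0.826 ± 0.101 and 0.873 ± 0.0357. The CDAHFD mean was the higher in all 4 pairs, and the diets overlapped in WT females, in WT males and in Cyp2b-null males. In Cyp2b-null females they did not overlap, which gave the smallest p that a two-sided exact permutation test of 4 against 4 allows (p = 0.0286). Adjusted over the 4 comparisons it was 0.114, so that a single comparison could not pass, and the others were 0.19 to 0.429. The ratio leaves out the counts of the pseudogene entry.

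Both genes lie on chromosome 15 of GRCm38.p6, Krt8 from 101996711 to 102004342 on the minus strand and Krt18 from 102028216 to 102032026 on the plus strand, so that 23874 bases separate their starts. The 250 bases before each start are printed from RefSeq (GRCm38.p6) because these are the members that moved most closely together. Promoters of 7 of the 10 genes were matched, and they were searched on both strands for the letters GGAATG (bound by TEAD factors), ACAAAG (SOX factors), TGGGAA (RBPJ) and TGANTCA (AP-1). Capitals mark matches, TGGGAA in Krt8 and ACAAAG on the opposite strand in Krt18. The first is chr15:102004343-102004592, minus strand, and the second chr15:102027966-102028215, plus strand.
Krt8: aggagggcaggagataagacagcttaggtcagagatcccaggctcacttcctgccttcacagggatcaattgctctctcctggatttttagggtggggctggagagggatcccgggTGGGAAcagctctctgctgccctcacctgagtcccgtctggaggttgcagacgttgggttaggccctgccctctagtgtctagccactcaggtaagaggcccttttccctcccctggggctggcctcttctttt
Krt18: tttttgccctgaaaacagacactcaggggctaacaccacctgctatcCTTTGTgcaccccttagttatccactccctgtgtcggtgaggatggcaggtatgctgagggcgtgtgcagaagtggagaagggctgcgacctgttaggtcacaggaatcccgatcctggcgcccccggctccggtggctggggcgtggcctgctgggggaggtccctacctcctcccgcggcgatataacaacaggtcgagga
The match in Krt8 begins at position -134 from the start, and 21.6% of the 32851 mouse promoters of the same length hold those letters. The match in Krt18 begins at position -203, and 16.5% of promoters hold its letters. Afp also had an ACAAAG match, at position -144, Prom1 had a TGGGAA match at -116 and TGANTCA matches at -88 and, before its other start, at -189, and Krt7, Krt23 and Epcam had none of the 4. TGANTCA is held by 6.75% of promoters and GGAATG by 12.6%. A match describes these letters and does not show that a factor binds.

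**Figure D2:**
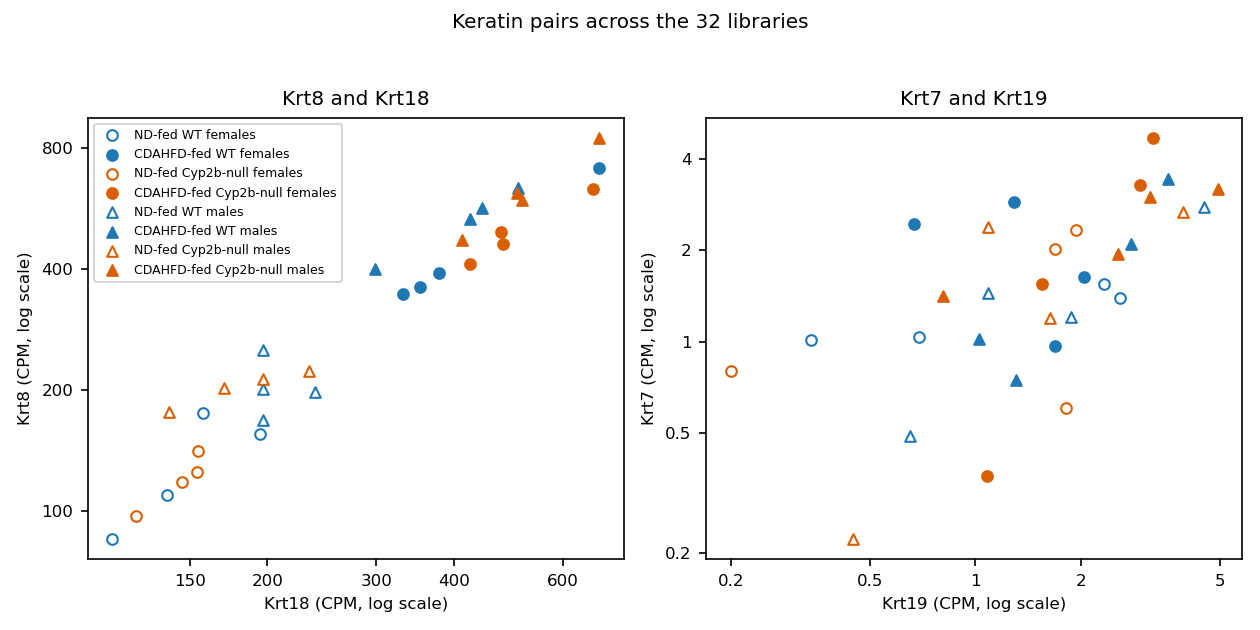
Krt8 against Krt18 (left) and Krt7 against Krt19 (right) in CPM on log axes in the 32 libraries, with circles for females, triangles for males, open symbols for ND, filled symbols for CDAHFD, blue for WT and orange for Cyp2b-null. For the pair on the left filled symbols lie at 299 CPM or more and open symbols at 252 CPM or less on both axes, while filled and open symbols are mixed for the pair on the right.

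Krt7 and Krt19 are the keratins that set bile duct cells apart from hepatocytes, and they had few counts. Krt7 had 1 to 39 counts per library and Krt19 1 to 60. In WT females Krt7 stood at 1.4, 1.55, 1.01 and 1.04 CPM on ND and at 2.45, 0.967, 1.63 and 2.89 CPM on CDAHFD, with overlap. Over the 4 comparisons its log2 fold changes ran from 0.43 in WT males to 0.87 in Cyp2b-null females, all above 0 and none called. The 95% intervals (1.96 SE) were -0.49 to 1.92 in WT females, -0.24 to 1.98 in Cyp2b-null females, -0.70 to 1.56 in WT males and -0.47 to 1.68 in Cyp2b-null males. In Cyp2b-null females Krt7 was at 0.605, 0.799, 2.33 and 2.02 CPM on ND and at 1.55, 3.28, 0.36 and 4.71 CPM on CDAHFD. In WT males it was at 1.45, 0.486, 1.21 and 2.78 CPM on ND and at 0.745, 1.02, 3.45 and 2.09 CPM on CDAHFD. In Cyp2b-null males it was at 1.2, 0.223, 2.68 and 2.39 CPM on ND and at 3, 1.94, 3.2 and 1.41 CPM on CDAHFD. The diets overlapped in all of these, and the widest spread was among CDAHFD-fed Cyp2b-null females.

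Krt19 was at 2.59, 2.33, 0.338 and 0.69 CPM in ND-fed and at 0.667, 1.69, 2.04 and 1.29 CPM in CDAHFD-fed WT females. The diets overlapped fully, and the log2 fold change was -0.06 (SE 0.61, interval -1.24 to 1.13, adjusted p = 0.962). In Cyp2b-null females it was at 1.82, 0.2, 1.94 and 1.68 CPM on ND and at 1.55, 2.95, 1.08 and 3.22 CPM on CDAHFD, a change of 0.77 (interval -0.34 to 1.88, adjusted p = 0.307). In WT males it was at 1.08, 0.649, 1.88 and 4.5 CPM on ND and at 1.3, 1.02, 3.56 and 2.79 CPM on CDAHFD, a change of 0.21 (interval -0.99 to 1.41, adjusted p = 0.827). Diets overlapped here too. In Cyp2b-null males Krt19 was at 1.64, 0.446, 3.92 and 1.09 CPM on ND and at 3.16, 2.56, 4.92 and 0.806 CPM on CDAHFD, a change of 0.75 (interval -0.43 to 1.92, adjusted p = 0.348). In WT mice these signs depended on single libraries or on the scaling: by library size alone the value in WT females was 0.25, without 1 library in turn it ran from -0.37 to 0.49 in females and from -0.18 to 0.86 in males, and for Krt7 in WT males from -0.13 to 0.87. The diet effects of these duct keratins were not called, and the upper bounds of the 8 intervals lay between 1.13 and 1.98. Of the genes of duct cells, Krt7 and Krt19 were thus not called, while Sox9 was called in 2 and Epcam in 3 diet comparisons. The genes are described by their own roles and not as a measure of the ductular reaction, which was not tested.

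Krt23 is a type I keratin that is scarce in the resting liver. In WT females it stood at 2.19, 0, 2.03 and 0.69 CPM on ND and at 8.89, 14, 4.9 and 8.19 CPM on CDAHFD. All CDAHFD-fed libraries were above the ND-fed libraries, and Krt23 had the largest diet effect of the 10 genes there, a rise of 2.77 (SE 0.57, adjusted p = 0.000371). In Cyp2b-null females it was at 1.82, 5.39, 1.56 and 1.35 CPM on ND and at 12.9, 16.6, 8.09 and 15.9 CPM on CDAHFD, a rise of 2.33 (SE 0.45, adjusted p = 0.000346). Replicate 2 stood apart from the other ND-fed libraries, and without it the change was 3.11. In WT males Krt23 was at 1.08, 0.973, 1.48 and 1.28 CPM on ND and at 2.23, 5.72, 6.55 and 5.06 CPM on CDAHFD, without overlap, a rise of 2.01 (SE 0.49, adjusted p = 0.00221). On ND, Krt23 had only 6 to 11 counts per library there, and 5 to 16 in Cyp2b-null males. In Cyp2b-null males it was at 1.75, 1.56, 1.65 and 1.09 CPM on ND and at 2.52, 3.89, 5.91 and 0.605 CPM on CDAHFD. Replicate 4, the shallowest CDAHFD-fed library of these males, was below all 4 ND-fed libraries, and the change of 1.15 (SE 0.47, adjusted p = 0.0535) was not called. Without that library it was 1.44 and called (adjusted p = 0.00602).

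Sox9 is the transcription factor of bile duct cells and of hepatocytes that turn towards a duct fate. WT females had 1.6, 1.94, 2.7 and 2.76 CPM on ND and 6.67, 4.11, 9.2 and 7.07 CPM on CDAHFD. The diets did not overlap, and Sox9 rose by 1.58 (SE 0.35, adjusted p = 0.00134). Cyp2b-null females had 2.12, 2, 3.11 and 3.37 CPM on ND and 5.69, 8.36, 3.42 and 6.94 CPM on CDAHFD, a rise of 1.21 (SE 0.33, adjusted p = 0.00742), again without overlap. WT males had 2.17, 11.8, 4.3 and 7.49 CPM on ND and 10.6, 7.15, 12.9 and 9.59 CPM on CDAHFD. The ND-fed males were widely spread, and the change of 0.66 (SE 0.34, adjusted p = 0.143) was not called. Without ND-fed replicate 2, the highest of them, it was 1.15 and called (adjusted p = 0.00933). In Cyp2b-null males Sox9 was at 7.53, 6.25, 4.75 and 5.87 CPM on ND and at 6.31, 9.1, 8.28 and 5.04 CPM on CDAHFD, a change of 0.24 (SE 0.34, adjusted p = 0.613). The diet effect of Sox9 was lower in males than in females by 0.90 in WT mice (SE 0.52, adjusted p = 0.586) and by 0.94 in Cyp2b-null mice (SE 0.51, adjusted p = 0.302), and neither difference was called.

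Epcam is an adhesion protein of bile duct and progenitor cells that hepatocytes of the adult liver lack. WT females had 1.6, 1.17, 2.37 and 2.59 CPM on ND and 3.34, 5.56, 2.45 and 3.21 CPM on CDAHFD. The diets overlapped by a small margin, and the change of 0.84 (SE 0.39, adjusted p = 0.121) was not called. In Cyp2b-null females Epcam was at 3.93, 2.4, 0.778 and 1.35 CPM on ND and at 5.95, 7.54, 5.57 and 7.19 CPM on CDAHFD, without overlap, a rise of 1.64 (SE 0.36, adjusted p = 0.00134). WT males had 1.26, 0.324, 0.537 and 2.14 CPM on ND and 1.49, 1.02, 7.24 and 6.62 CPM on CDAHFD. The ND values were 2 to 10 counts. Replicates 3 and 4 on CDAHFD were far above all others while replicates 1 and 2 lay within the ND range, and Epcam rose by 2.08 (SE 0.70, adjusted p = 0.0199). This call was lost without ND-fed replicate 2 or 3 or without CDAHFD-fed replicate 3 or 4, where the value lay between 1.62 and 1.83. In Cyp2b-null males Epcam was at 0.873, 1.12, 3.3 and 0.435 CPM on ND and at 3.16, 6.34, 8.86 and 3.02 CPM on CDAHFD, a rise of 1.99 (SE 0.64, adjusted p = 0.0148). The call was lost without ND-fed replicate 1 (1.74) or CDAHFD-fed replicate 3 (1.61), and without ND-fed replicate 3 the value was 2.73.

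Prom1 codes for prominin-1 (CD133), a protein of membrane protrusions that marks progenitor cells. It lay between 2.25 and 17.7 CPM in females and between 0 and 4.59 CPM in males, on scales set separately for each sex, and the difference in level was not tested. WT females had 13.2, 2.72, 10.8 and 12.3 CPM on ND and 6.45, 8.46, 2.25 and 17.2 CPM on CDAHFD, a change of -0.21 (SE 0.46, adjusted p = 0.787) that was 0.10 by library size alone. Cyp2b-null females had 9.08, 7.19, 11.7 and 4.04 CPM on ND and 7.5, 17.7, 8.27 and 13 CPM on CDAHFD, a change of 0.64 (SE 0.45, adjusted p = 0.305). The diets overlapped in both genotypes. In WT males Prom1 had 2 to 7 counts on ND and 4 to 36 on CDAHFD, or 0.361, 1.14, 0.269 and 1.07 CPM against 1.86, 0.817, 4.13 and 2.44 CPM. The change was 1.80 (SE 0.75, adjusted p = 0.057), just above the threshold. In males of both genotypes Prom1 needed CDAHFD-fed libraries to pass the low-count filter, which favors a rise. Cyp2b-null males had 0.763, 0.892, 1.24 and 0 CPM on ND and 1.26, 2.56, 4.59 and 0.202 CPM on CDAHFD, a change of 1.66 (SE 0.73, adjusted p = 0.0655), and without CDAHFD-fed replicate 4 it was 1.96 and called (adjusted p = 0.0202). Without CDAHFD-fed replicate 2 the value in WT males was 2.05 and called (adjusted p = 0.0364). The diet effects of WT males and females differed by 2.06 (SE 0.95, unadjusted p = 0.028), which was not called after adjustment (adjusted p = 0.387).

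Cd24a codes for a small glycoprotein of the surface of progenitor cells and of several kinds of leukocytes. WT females had 2.19, 2.72, 4.73 and 3.62 CPM on ND and 5.78, 9.67, 9.81 and 8.35 CPM on CDAHFD. The diets did not overlap in any of the 4 comparisons of this gene. In WT females Cd24a rose by 1.35 (SE 0.40, adjusted p = 0.0153), a call that was lost without ND-fed replicate 1 (1.17, adjusted p = 0.0606). Cyp2b-null females had 3.33, 3.59, 0 and 3.37 CPM on ND and 7.5, 12, 4.85 and 11 CPM on CDAHFD, a rise of 1.66 (SE 0.41, adjusted p = 0.00295). The count of 0 was in the shallowest of the 32 libraries, where it allows up to 1.03 CPM for counting error alone. In WT males Cd24a was at 1.63, 3.89, 3.76 and 3 CPM on ND and at 6.7, 4.29, 18 and 13.1 CPM on CDAHFD, a rise of 1.79 (SE 0.44, adjusted p = 0.00285). Cyp2b-null males had 2.84, 1.78, 3.51 and 1.74 CPM on ND and 7.42, 10.3, 16.7 and 4.23 CPM on CDAHFD, a rise of 1.98 (SE 0.46, adjusted p = 0.00127). Of 8 macrophage markers 7 were tested and 6 rose in each of the 4 diet comparisons, among them Itgam, Cd68 and Lyz2. Clec4f was not called in WT mice. Of all genes tested, 13.9% to 20.3% were called higher in these comparisons. The summed level of these 8 ran from 158 to 621 CPM on ND and from 629 to 1488 CPM on CDAHFD over all libraries, with Trem2 listed at 0 in all of them, which is not read as absence since how reads were assigned is not fully given. Their part in the change of Cd24a was not tested.

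Afp, the alpha-fetoprotein of the fetal liver, stood below 10 CPM in every library. WT females had 2.99, 1.17, 2.03 and 2.76 CPM on ND and 3.56, 4.35, 4.09 and 6.59 CPM on CDAHFD. All CDAHFD-fed libraries were above the ND-fed ones, but the change of 0.98 (SE 0.38, adjusted p = 0.0613) was not called. Cyp2b-null females had 3.33, 2.2, 4.67 and 3.7 CPM on ND and 8.28, 2.62, 3.78 and 4.84 CPM on CDAHFD, a change of 0.48 (SE 0.35) that was not called (adjusted p = 0.315). In WT males Afp was at 1.81, 1.78, 0.94 and 1.28 CPM on ND and at 3.91, 4.29, 3.56 and 4.18 CPM on CDAHFD, a rise of 1.45 (SE 0.44, adjusted p = 0.0124). No CDAHFD-fed group of any of the 10 genes had a smaller SD, at 3.99 ± 0.325 CPM (SD, n = 4). Cyp2b-null males had 0.873, 0, 0.826 and 2.39 CPM on ND and 3.31, 6.14, 4.76 and 5.04 CPM on CDAHFD, a rise of 2.24 (SE 0.47, adjusted p = 0.000408) that was 2.91 without ND-fed replicate 4. The diets did not overlap in males of either genotype. The diet effect of Afp in Cyp2b-null mice was higher in males than in females by 1.78 (SE 0.59, unadjusted p = 0.00396, adjusted p = 0.0762), which was not called.

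**Figure D3:**
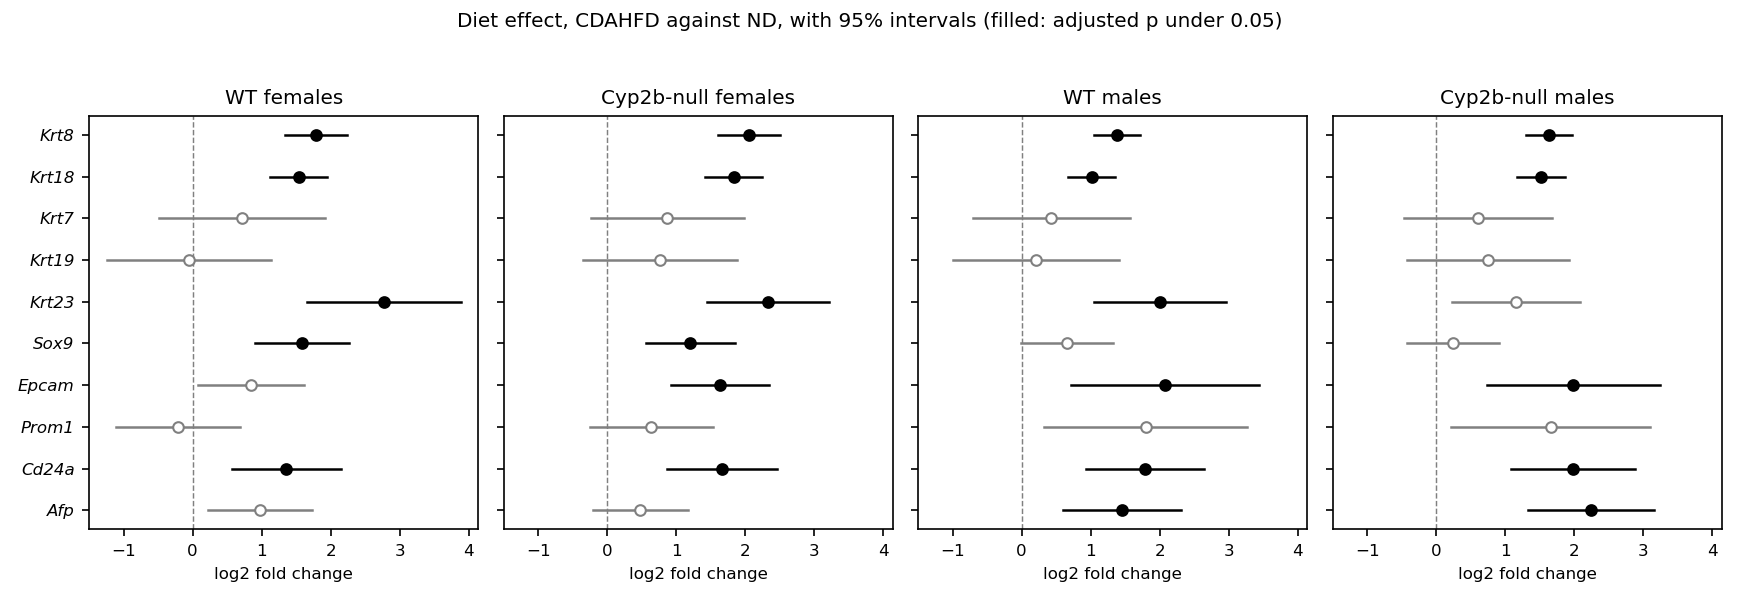
Log2 fold changes of CDAHFD against ND for the 10 genes in each sex and genotype, as points with 95% intervals (1.96 SE, edgeR quasi-likelihood fit), filled where the adjusted p-value was under 0.05. Krt8, Krt18 and Cd24a are filled in all 4 panels, Krt7, Krt19 and Prom1 in none, and the narrowest intervals are those of Krt8 and Krt18.

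The study asked whether mice without Cyp2b respond differently to the diet. For these genes, no difference between the genotypes was called. On ND, 0 of the 10 were called in females, where 0.0756% of all genes were called, and 0 in males, against 0.0371%. On CDAHFD, 0 were called in females, against 0.0227%, and 0 in males, against 0.0297%. The log2 fold changes of Cyp2b-null against WT ran from -0.52 to 1.03 over these 40 values, with 24 above 0, and the lowest adjusted p was 0.826. An unadjusted p under 0.05 was found for 1 of the 40, for Epcam in CDAHFD-fed females. DESeq2 also called 0 in each of these comparisons.

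That gene stood at 3.34, 5.56, 2.45 and 3.21 CPM in WT and at 5.95, 7.54, 5.57 and 7.19 CPM in Cyp2b-null females on CDAHFD. The genotypes did not overlap, with the highest WT library at 5.56 and the lowest Cyp2b-null library at 5.57 CPM. The difference of 0.88 (SE 0.32, unadjusted p = 0.0114, adjusted p = 0.826) did not pass the adjustment. It was the only one of the 10 genes without overlap between the genotypes on that diet, where 1.48% of all genes were higher in Cyp2b-null females without overlap. On ND the same gene differed by 0.08 in females, and on CDAHFD by 0.38 in males, both with overlap. The test of whether the diet effect differed between the genotypes called 0 of the 10 in females, against 0% of all genes, and 0 in males, against 0.00743%. The lowest unadjusted p was 0.148 in females and 0.0544 in males, the latter for Krt18, whose diet effect was higher in Cyp2b-null than in WT males by 0.51 (SE 0.25, adjusted p = 0.822).

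The diet effects of the sexes were compared in a fit of all 32 libraries, in which 14020 genes were tested. None of the 10 was called in WT mice, where 0.97% of all genes were called, or in Cyp2b-null mice, where 3.4% were. An unadjusted p under 0.05 was found for Prom1 in WT mice and for Afp in Cyp2b-null mice only.

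**Figure D4:**
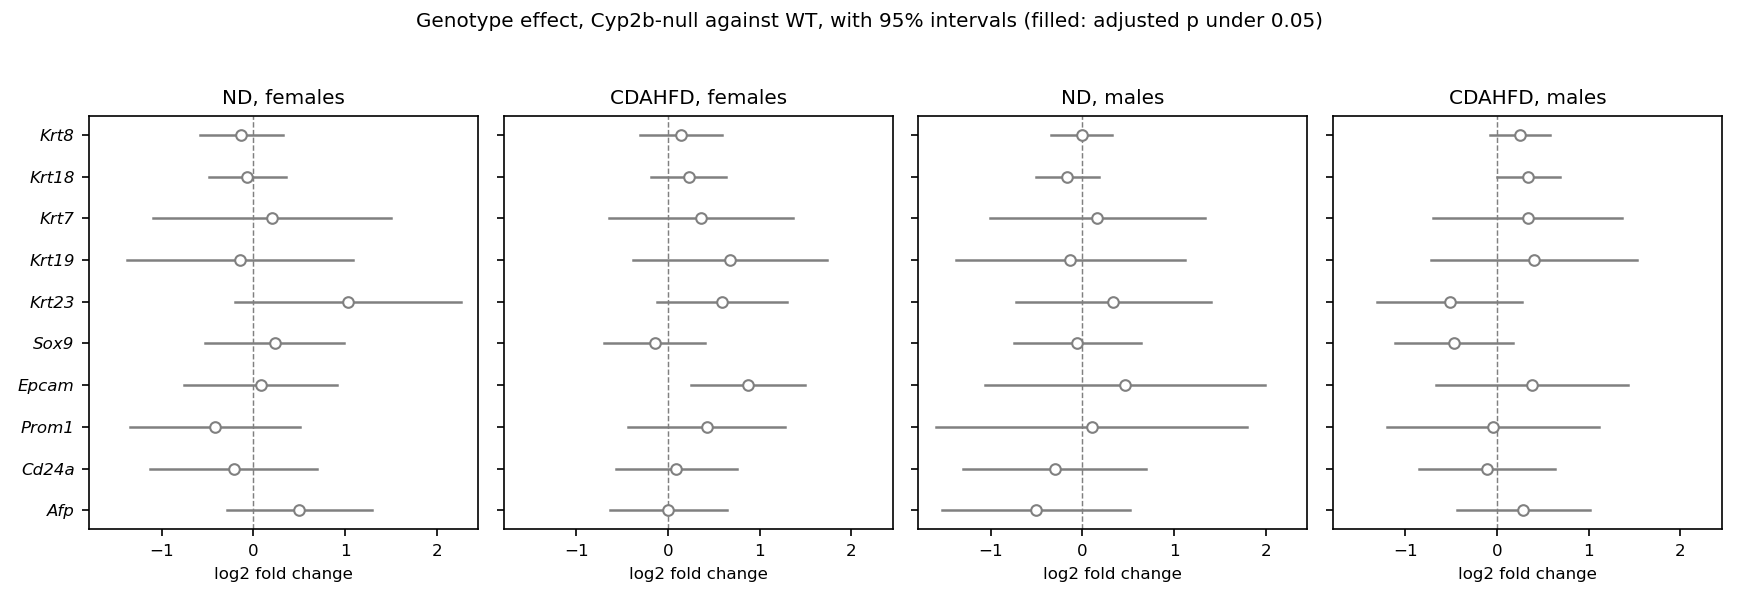
Log2 fold changes of Cyp2b-null against WT for the 10 genes on each diet and in each sex, as points with 95% intervals (1.96 SE, edgeR quasi-likelihood fit), filled where the adjusted p-value was under 0.05. No point is filled, and the intervals of Krt8 and Krt18 are the narrowest.

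Libraries of a group did not rank alike for all genes, but some stood at an end for most. Among CDAHFD-fed Cyp2b-null males, replicate 4, the shallowest with 4809344 counts, was the lowest for 9 of the 10 genes, and replicate 3, the deepest with 9411558 counts, was the highest for 6. Among CDAHFD-fed WT males, replicate 3, the deepest with 7124262 counts, was the highest for 7. In ND-fed WT females replicate 2, the shallowest, was the lowest for 6. Other libraries went the opposite way: replicate 3 of the ND-fed Cyp2b-null females, the shallowest of all 32, was the highest for 6, and replicate 3 of the CDAHFD-fed Cyp2b-null females, the second deepest of its group, was the lowest for 6. The relation of each gene to the library total, both as deviations from the group means of the 16 libraries of a sex, had its highest correlation for Cd24a in males (Pearson r = 0.657, permutation p = 0.0112, Spearman rho = 0.6, permutation p = 0.022), and no relation passed the adjustment over the 20 tested (adjusted p = 0.223 for this r). Without the libraries farthest from the median, r was 0.566.

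Pairs of genes were compared in the same way, over deviations from the group means with 100000 permutations within groups, 90 pairs over both sexes. The median r was 0.0491 in females and 0.356 in males. Krt8 and Krt18 deviated together in females (r = 0.934, permutation p = 0.00029, adjusted p = 0.0261; rho = 0.95) and in males (r = 0.799, permutation p = 0.00154, adjusted p = 0.0346; rho = 0.709). The rank correlation in males did not pass the adjustment over the 90 pairs (adjusted p = 0.116). In males, Krt7 and Krt19 deviated together (r = 0.841, permutation p = 0.00061, adjusted p = 0.0274; rho = 0.862), as did Prom1 and Cd24a (r = 0.795, permutation p = 0.00092, adjusted p = 0.0276; rho = 0.797). In females r was 0.445 for Krt7 and Krt19 and -0.121 for Prom1 and Cd24a, and the sexes were not tested against each other. Both Prom1 (r = 0.521) and Cd24a also moved with the library total in males, without passing the adjustment, and the part of depth in this pair was not tested. No other pair passed the adjustment. Without the libraries farthest from the median these correlations were 0.957, 0.703, 0.786 and 0.774 in the order given.

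Likeness of pattern across the 32 libraries was measured as the root mean square difference of log2 CPM, Z-scored within each sex, over 12971 genes. A smaller value is closer. Differences between the diets were not removed, so genes with similar diet effects come out close. The genes closest to Krt8 were its pseudogene entry (0.0977), Krt18 (0.197) and Srxn1 (0.251), the sulfiredoxin of the oxidative stress response. After Krt8 and Krt8-ps, the gene closest to Krt18 was Lmna (0.282), which codes for the nuclear lamins A and C. Krt7 and Krt19 were near each other (0.818), with Epha7 (0.813) slightly closer to Krt7 and Gm5500 (0.864) next for Krt19. Epcam was closest to Eln (0.591), the gene of elastin, to Arl5c (0.591) and to St14 (0.605), an epithelial membrane protease. Cd24a was closest to 2310022A10Rik (0.45), to Src (0.488) and to Inpp5d (0.489), a phosphatase of blood cells. For Krt23 the closest were Gm32673 (0.537), Elovl7 (0.584) and 5330417C22Rik (0.587), for Sox9 Fam83h (0.564), Ap3d1 (0.621) and Cchcr1 (0.672), for Prom1 Rrp9 (0.77), Plet1 (0.831) and Lrmp (0.845), and for Afp Cd151 (0.619), Slc7a1 (0.666) and Cd14 (0.671), the co-receptor for bacterial lipopolysaccharide.

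Counts of the lists that follow stand beside the shares of all genes tested: 13.9% higher and 10.2% lower in WT females, 16.9% and 13.9% in Cyp2b-null females, 18% and 15% in WT males, and 20.3% and 17.1% in Cyp2b-null males. Of a list of 25 genes of bile duct cells, 16 were tested in females and 9 rose in WT females, with 1 lower, where the list's median log2 fold change was 0.68. In Cyp2b-null females 9 rose and 2 fell (median 0.73). Of 17 tested in males, 11 rose in WT (median 0.83) and 10 in Cyp2b-null males (median 0.85), and none fell. The gene lower in WT females was Aqp1, at -0.72 (SE 0.15), which was not called in WT males (-0.40, SE 0.22). Slc4a2, Pkhd1 and Dsg2 were among the genes not called in WT mice of either sex. Elf3, an epithelial transcription factor, rose by 3.19 in WT females (SE 0.51) and by 2.88 in WT males (SE 0.56). Tspan8, a tetraspanin of epithelial surfaces, rose by 2.68 (SE 0.56) and 3.21 (SE 0.89) in the same comparisons. On ND, Elf3 had 1 to 7 counts in WT females and 3 to 5 in WT males. Tspan8 had 1 to 6 and 1 to 10 there. Both genes needed the CDAHFD-fed libraries to pass the low-count filter, which favors a rise. Spp1 (osteopontin), which bile duct cells and also macrophages make, stood at 30.7 to 55.4 CPM in ND-fed and at 100 to 196 CPM in CDAHFD-fed WT females and rose by 1.95 (SE 0.22). It rose by 2.97 in WT males (SE 0.35). Cldn7 was listed at 0 in every library, which is likewise not read as absence.

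Notch and YAP signaling direct cells of the liver towards the duct fate. Of their 19 listed genes 15 were tested in each sex, and 3 rose in each of WT females, Cyp2b-null females and WT males, while 6 rose and 1 fell in Cyp2b-null males. In the first 3 comparisons the count is near the 13.9%, 16.9% and 18% of all genes called higher, and is not read as a result about these pathways. Ajuba, a partner of the Hippo kinases, rose by 1.80 in WT females (SE 0.25) and by 1.91 in WT males (SE 0.22). Wwtr1, the YAP relative TAZ, rose by 0.51 (SE 0.18) and 0.59 (SE 0.15). The list's medians were 0.51, -0.06, 0.47 and 0.24 in WT females, Cyp2b-null females, WT males and Cyp2b-null males.

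Signals for the growth of progenitor cells gave 3 genes higher and 1 lower of 12 tested in WT females, and 5 higher and 1 lower in WT males. In Cyp2b-null mice 3 rose and 2 fell in females, and 6 rose and 2 fell in males. In females the counts are near the shares of all genes, 13.9% higher and 10.2% lower in WT and 16.9% and 13.9% in Cyp2b-null mice, and males had 18% and 15% in WT and 20.3% and 17.1% in Cyp2b-null mice. Tnfrsf12a, the receptor of the cytokine TWEAK, rose by 2.30 in WT females (SE 0.27) and by 1.52 in WT males (SE 0.27), and Tnfsf12, the gene of TWEAK itself, by 0.86 (SE 0.27) and 1.23 (SE 0.38). Cd44, a hyaluronan receptor also found on leukocytes, rose by 1.45 (SE 0.19) and 2.53 (SE 0.23). The list's medians were 0.34, 0.00, 0.60 and 0.66 in the order used above.

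Of 14 listed genes of the fetal liver or regulators of Afp, 13 were in the tables and 8 were tested, and 3 rose in WT females, 2 in Cyp2b-null females, 4 in WT males and 5 in Cyp2b-null males, with none lower, where 13.9%, 16.9%, 18% and 20.3% of all genes were called higher. The count in Cyp2b-null females is near that share. H19, an imprinted long RNA of the fetal liver, rose from 0.651 ± 0.586 to 20.4 ± 9.85 CPM (SD, n = 4) in WT females, a change of 4.98 (SE 0.70), and by 4.93 in WT males (SE 0.88). Both were larger than the change of Afp in the same mice. ND-fed WT libraries held 0 to 5 counts of H19 in females and 0 to 4 in males. H19 needed the CDAHFD-fed libraries to pass the low-count filter, which favors a rise. Trip6 rose by 0.72 (SE 0.18) and 0.54 (SE 0.15). Zhx2 and Zbtb20, repressors of Afp after birth, were not called in any of the 4 comparisons, with changes of -0.35 to 0.08 for Zhx2 and -0.24 to -0.10 for Zbtb20. The list's medians were 0.21, 0.51, 0.63 and 0.73.

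Keratins 8 and 18 gather in inclusions of damaged hepatocytes together with the proteins that bind, cross-link or label them. Of 14 such genes 11 were tested, and 5 rose in WT females and 3 in each of the other comparisons, while 1 fell in Cyp2b-null females, in WT males and in Cyp2b-null males. Of all genes 13.9%, 16.9%, 18% and 20.3% were called higher in the 4 comparisons, and the counts of 3 are near these shares. Tgm2, which cross-links proteins, rose by 1.27 in WT females (SE 0.12) and by 1.06 in WT males (SE 0.13). Sqstm1 (p62) rose by 0.51 (SE 0.13) and 0.53 (SE 0.16). The list's medians were 0.44, 0.34, 0.33 and 0.32. Of 16 other keratins 1 passed the filter in each sex, Krt10 in females, which was not called, and Krt80 in males. Krt80 was higher by 1.95 in WT (SE 0.59) and by 3.24 in Cyp2b-null males (SE 0.76). It had 0 to 4 counts in ND-fed WT and 0 to 2 in ND-fed Cyp2b-null males. On CDAHFD these were 5 to 13 and 5 to 26. Krt80 thus passed the low-count filter through CDAHFD-fed libraries only, which favors a rise, and its change is not read as a result.

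Markers of other cell types are given beside these results. Of 13 hepatocyte markers 12 fell in WT females and 12 in WT males, and 9 and 10 fell in Cyp2b-null females and males, with medians from -0.83 to -0.54. Their summed level was 111212 to 205162 CPM on ND and 56617 to 121015 CPM on CDAHFD. Of 8 genes of proliferating cells 6, 7, 8 and 8 rose in WT females, Cyp2b-null females, WT males and Cyp2b-null males, and their summed level was 26.5 to 43.3 CPM on ND and 77.2 to 114 CPM on CDAHFD. Of 8 stellate cell markers 3, 5, 5 and 7 rose, among them Col1a1 and Acta2. The neutrophil genes S100a8 and S100a9, the only 2 of 8 tested, rose in all 4 comparisons. On ND the summed level of all 8 was at most 2.72 CPM in females and 1.95 CPM in males. These 2 passed the low-count filter mainly through CDAHFD-fed libraries, which favors a rise, and their change is not read as a result. None of 3 or 4 mesothelium markers tested rose. Of 9 pancreas markers 2 were tested and none rose, and Amy2b and Try4 had no count in any library. Of 5 erythroid markers tested, 1 rose in females of either genotype and 1 fell in males. In WT mice this was the same gene, Alas2, with a change of 1.62 in females (SE 0.22) and -0.77 in males (SE 0.16). A different lymphocyte marker was tested in each sex, Cd79a in females and Cd3g in males, and neither was called. Of 7 endothelial markers 0, 0, 1 and 4 rose and 2, 3, 1 and 0 fell. The part of these cell types in the changes of the 10 genes was not tested.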

How the data were processed

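Gene counts per library were deposited by the authors as raw counts, 1 table of 16 libraries per sex, with no values pooled. The study's notes name FastQC, Trimmomatic, GSNAP, Subread featureCounts and the build GRCm38.p6. Tool versions, strand and the treatment of reads with several matches are not given in the sources used here, so counts of near-identical or overlapping entries are uncertain. All 41585 entries per table entered the fits, of which 27 bear symbols turned into dates.

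Counts were fitted per table with edgeR 4.0.16 in R 4.3.3 (TMM, filterByExpr with a smallest count of 10 and total of 15, quasi-likelihood test, Benjamini-Hochberg, threshold 0.05), with all 4 groups of a sex in 1 fit and the 32 libraries in a joint fit for differences between the sexes. The fit was tested on simulated data. DESeq2 1.42.0, other scalings and filters, a replicate block, only the groups compared and leaving out each library were the alternatives. All libraries differed beyond sampling noise (lowest chi-square per degree of freedom 3.34). The floor of a count of 0 is 3 counts, for counting error only.

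The members and gene lists were chosen with earlier results of these data known. All members were named. From each list up to 3 genes called in WT mice of both sexes with the largest smaller change were named, with Zhx2, Zbtb20 and Spp1 by role, and another gene chosen by role is not reported here. Other genes named were chosen after their values were seen.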

Additional observations from a re-analysis of the deposited data

Results flagged for a closer look

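In 6 of the 80 sets of 4 libraries, 1 for each gene and group, a library stood apart by Dixon's criterion, where chance gives about 1 in 20. In CDAHFD-fed WT females replicate 4 was the highest for Krt8, at 713 CPM, and for Krt18, at 688 CPM. In ND-fed WT males replicate 4 was the highest for Krt18, at 239 CPM. In ND-fed Cyp2b-null females replicate 2 was the lowest for Krt19, at 0.1997 CPM, and the highest for Krt23, at 5.39 CPM. In the same group replicate 3 was the lowest for Cd24a, at 0 CPM, in the library with the fewest counts.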

How the results depend on the processing

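The number of the 10 genes called in the diet comparisons lay between 5 and 8 over the alternatives and between 4 and 7 when each library was left out in turn, and no gene was called for genotype or interaction in any of them. For the difference between the sexes, 1 gene was called without the low-count filter in WT mice (Prom1) and 1 in Cyp2b-null mice (Afp), and 1 by DESeq2 in Cyp2b-null mice (Afp, adjusted p = 0.0314). Leaving out 1 library gave 0 to 1 there, with Afp called without CDAHFD-fed Cyp2b-null females replicate 1 (adjusted p = 0.0354) or ND-fed Cyp2b-null males replicate 4 (adjusted p = 0.0238). By library size alone the sign turned for Krt19 (0.25) and Prom1 (0.10) in WT females. Over single libraries left out, Krt19 ran from -0.37 to 0.49 and Prom1 from -0.85 to 0.10 in WT females, and Krt7 from -0.13 to 0.87 and Krt19 from -0.18 to 0.86 in WT males. The cause was not tested. No pairing of libraries by replicate number was seen, though a check with 4 libraries per group cannot exclude it. Same-numbered libraries correlated by over 0.1 in 2 of 24 pairs in females and 3 of 24 in males. The highest r was 0.177 and 0.292, and 7 and 6 were best matched by their own number. With the replicate block 6, 6, 6 and 5 genes were called in WT females, Cyp2b-null females, WT males and Cyp2b-null males, adding Afp in WT females. Krt7, Krt19 and, in males, Prom1 had few counts, and their intervals are wide.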
